A study of Mus musculus with 10 samples.

Results

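The collagen genes of the lactating mouse mammary gland were followed in glands that received endotoxin and in control glands. Members were the genes of the deposited expression table whose symbol is Col, a number, the letter a and a number, such as Col1a1. By this rule 44 of the 35275 genes in the table were collagen genes, and all 44 had a value above 0 in at least 1 library. They comprised 11 fibrillar genes, 6 of the type IV basement membrane network, 6 of the type VI beaded filaments and 9 of the fibril-associated collagens (FACIT). The rest were 2 multiplexins, 4 transmembrane collagens, 3 short-chain network collagens and 3 others (the anchoring fibril gene Col7a1, Col26a1 and Col28a1).

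BALB/c mice, an inbred strain, were treated on day 3 of lactation. The 4th mammary glands of one body side were infused through the teat with 50 µL of lipopolysaccharide (LPS) of Escherichia coli 055:B5 at 0.4 mg/mL. The glands of the opposite side received 50 µL of sterile phosphate-buffered saline (PBS), and single glands were taken 12 h later. Sequenced libraries came from total RNA of 5 LPS and 5 PBS glands. All animals were lactating, no gland without an infusion was part of the groups, and a PBS gland lay in an animal whose other side held LPS. The labels give n = 9 but do not tie a library to an animal, so a p-value below reflects only how much these glands varied.

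Collagens are secreted proteins whose chains wind around each other into a stiff helix, which requires a glycine at regular, closely spaced positions along the chain. Fibrillar collagens assemble into the load-bearing fibrils of connective tissue and come mostly from fibroblasts. Type IV chains form the sheet-like network of basement membranes, which in the mammary gland underlies the myoepithelium and surrounds blood vessels and fat cells. The other classes decorate fibrils, link fibrils to basement membranes or anchor epithelial cells.

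Fibrillar and type IV genes differ in the glycine repeat of their coding sequence. The exons below, from GENCODE M21 on build GRCm38 (mm10), are examples from the fibrillar and type IV genes of highest mean FPKM. They also cover the 3 collagen genes with the lowest p-values between groups. Each is printed 5′ to 3′ on the coding strand, and capitals mark glycine codons that lie in runs of 3 or more units, a unit being a glycine codon and the 2 codons after it.
Col1a1 exon 8, chr11:94939904-94939957, plus strand: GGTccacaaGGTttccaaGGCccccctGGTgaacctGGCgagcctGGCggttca
Col1a2 exon 8, chr6:4515481-4515534, plus strand: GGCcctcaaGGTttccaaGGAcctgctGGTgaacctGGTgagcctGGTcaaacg
Col3a1 exon 6, chr1:45325360-45325413, plus strand: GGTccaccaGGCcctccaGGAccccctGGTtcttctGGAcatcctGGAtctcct
Col9a1 exon 11, chr1:24202014-24202067, plus strand: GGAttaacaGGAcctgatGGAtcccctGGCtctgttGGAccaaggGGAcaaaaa
Col4a1 exon 12, chr8:11242173-11242214, minus strand: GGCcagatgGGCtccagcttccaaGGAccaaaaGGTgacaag
Col4a2 exon 12, chr8:11406813-11406854, plus strand: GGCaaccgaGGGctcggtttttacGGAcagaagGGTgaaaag
Col18a1 exon 25, chr10:77068390-77068464, minus strand: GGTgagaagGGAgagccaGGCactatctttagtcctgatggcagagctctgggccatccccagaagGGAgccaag
Col17a1 exon 23, chr19:47665857-47665961, minus strand: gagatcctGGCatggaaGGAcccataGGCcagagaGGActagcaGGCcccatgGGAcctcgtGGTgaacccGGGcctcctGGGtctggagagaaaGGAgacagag

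The exons shown were chosen by rule, so the contrast between them is not a result. For Col1a1, Col1a2, Col3a1 and Col9a1 the first exon of 54 bases with 6 glycine codons was taken, which holds no break. For Col4a1, Col4a2, Col17a1 and Col18a1 the shortest exon with a break was taken, and each carries 1. Exons of exactly 54 bases made up 42.9% of the coding exons of Col1a1, 48.0% of Col1a2 and 49.0% of Col3a1. Their share was 4.0% in Col4a1 and 2.22% in Col4a2, against 0.731% of 160386 coding exons over all 21901 protein-coding genes. The longest unbroken run of units was 338 in Col1a1, 339 in Col1a2 and 344 in Col3a1. In Col4a1 it was 40 units with 22 breaks along the chain, and in Col4a2 66 units with 23 breaks. Col9a1, a fibril-associated collagen, reached 113 units, as did its partner genes Col9a2 and Col9a3. Exons of 54 bases made up 38.9% in Col9a1 and 46.7% in Col9a2 and Col9a3, but 6.35% in Col12a1 of the same class. Col17a1 and Col18a1 had longest runs of 55 and 30 units, with 21 and 16 breaks. Col16a1 had 52 units with 22 breaks and Col7a1 75 units with 20. Many breaks were thus not particular to type IV genes.

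**Figure D1:**
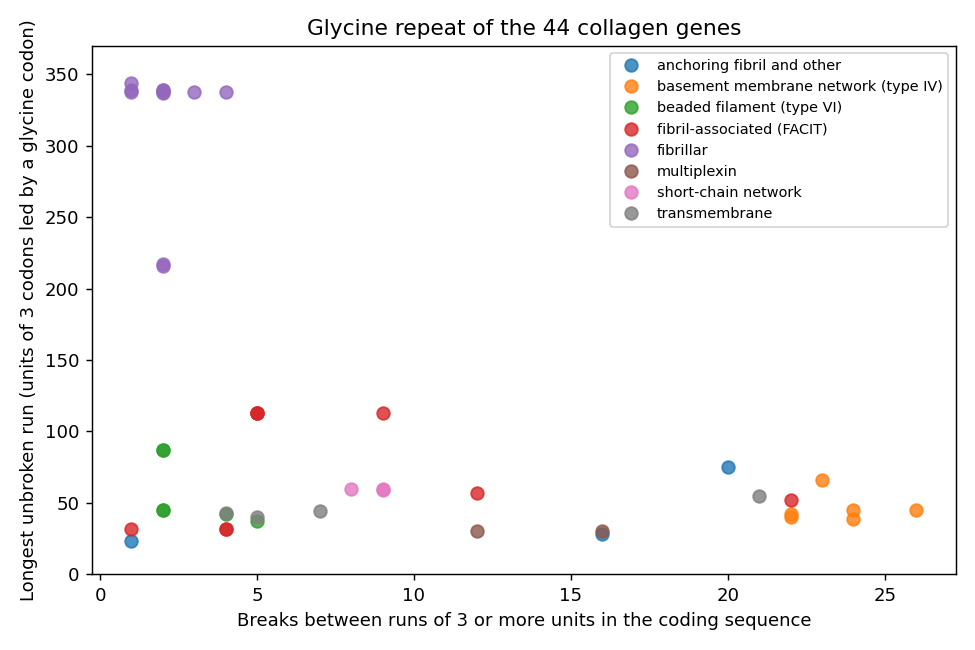
The x axis gives the number of breaks between runs of the glycine repeat in the coding sequence and the y axis the longest unbroken run, in units of 3 codons; each point is 1 of the 44 collagen genes, coloured by class. Fibrillar genes lie at the top left, with Col3a1 at 344 units, and type IV genes at the lower right, with 22 breaks in Col4a1 and 23 in Col4a2. Col16a1 (22 breaks), Col17a1 (21) and Col7a1 (20) lie at the lower right too.

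The type IV genes lie in pairs that point away from each other. On chromosome 8, Col4a1 (ENSMUSG00000031502, 11198423 to 11312826, minus strand) and Col4a2 (ENSMUSG00000031503, 11312805 to 11449287, plus strand) share 22 bases at their starts. The starts of Col4a4 and Col4a3 on chromosome 1 are separated by 71 bases, and those of Col4a6 and Col4a5 on the X chromosome by 1308 bases. Col3a1 (ENSMUSG00000026043) spans 45311538 to 45349706 on the plus strand of chromosome 1.

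Libraries held 15734303 to 18869545 counted reads, and expression was given in FPKM, the fragments of a gene divided by its length in kilobases and by the reads counted in the library. A gene of 1000 bases with 1 read had 0.053 to 0.0636 FPKM, a limit of counting only. The milk protein gene Csn2 stood at 31990 to 65950 FPKM, and 47.7 to 58.6% of summed FPKM fell to the top 10 genes of a library. Markers of fibroblasts (9 genes) and endothelium (8 genes) were above 0 in every library. B and T cell markers summed to 66.2 FPKM in PBS library 2, 30.8 in PBS library 4 and 22.1 in LPS library 3, against 1.01 to 7.67 in the other libraries. The lymph node chemokine Ccl21a was at 66.9 and 27.2 FPKM in PBS libraries 2 and 4.

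Collagen transcripts were a small part of the RNA in both groups, 0.0234 to 0.0496% of summed FPKM. Most of it came from 3 genes: Col3a1, Col4a1 and Col4a2 together took 56.9% of all collagen FPKM, and with Col1a2 and Col1a1 71.6%. By class, fibrillar genes held 46.6%, type IV 33.5%, type VI 9.27%, FACIT 4.33%, multiplexins 3.99% and transmembrane collagens 1.63%. The short-chain collagens held 0.204% and the anchoring fibril group 0.447%. Summed over all 44 genes the level was 252 ± 61.7 FPKM in LPS glands and 244.2 ± 51.3 in PBS glands (SD, n = 5 each), a ratio of 1.03.

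No collagen gene passed the test between LPS and PBS glands. Of the 44 genes, 19 reached 1 FPKM in at least 5 of the 10 libraries and were tested with limma on log2(FPKM + 1), with Benjamini-Hochberg adjustment over all 11414 genes tested. Called higher were 0 of 19, where 2.63% of all tested genes were called higher, and called lower were 0 of 19, where 0.605% were called lower. In either direction 3.23% of all tested genes were called. At an unadjusted p below 0.05 stood 3 of the 19, Col9a1, Col18a1 and Col17a1, where 16.5% of all tested genes did. DESeq2 called 1 collagen gene lower and none higher, where it called 300 of the 11414 genes lower and 546 higher. By edgeR no collagen gene was called, where 132 of the 11414 were called lower and 305 higher. The log2 change (LPS minus PBS) was positive for 10 collagen genes and negative for 9, with a median of 0.012 against 0.048 over all tested genes. None of the 44 was in the authors' deposited list of changed genes, which holds 908 genes where the expression table has 35275. Of the 44, 25 were too low to be tested here. In whole glands, fewer cells of a type and less RNA per cell cannot be told apart.

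**Figure D2:**
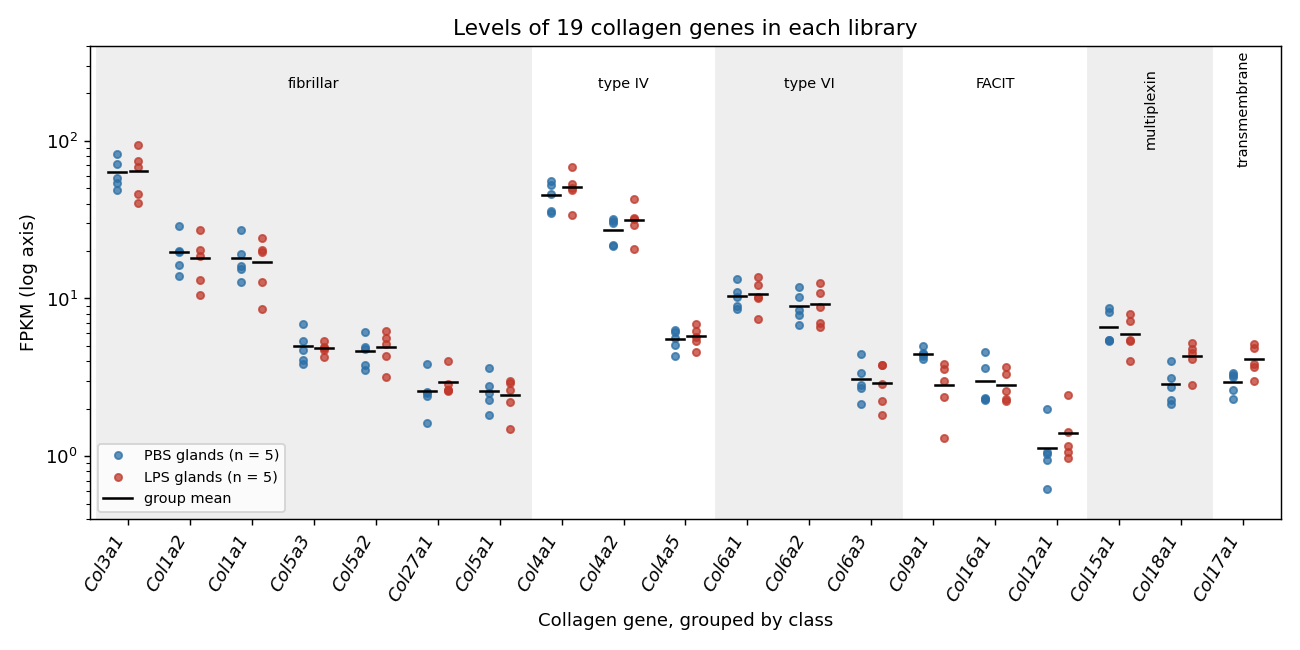
FPKM (log axis) of the 19 tested collagen genes, grouped by class along the x axis; each point is 1 library, blue for PBS and red for LPS glands (n = 5 each), and bars are group means. Points of the groups overlap for 18 genes, while every LPS point of Col9a1 lies below every PBS point. For Col18a1 and Col17a1 only 1 LPS point lies within the PBS range.

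Among the fibrillar genes, Col3a1, the type III chain of reticular fibrils, had the highest mean FPKM of all collagens. It was at 40.3, 74.4, 46.1, 94.3 and 67.9 FPKM in LPS libraries 1 to 5 and at 48.8, 82.6, 54.1, 57.9 and 71.8 FPKM in PBS libraries 1 to 5. LPS libraries held both the lowest and the highest value, and the groups overlapped over most of their range. The means were 64.6 ± 21.9 FPKM in LPS and 63.0 ± 13.9 FPKM in PBS glands. The log2 change was -0.0062 ± 0.22 (SE, limma adjusted p = 0.993), and its 95% interval ran from 0.718 to 1.38 as a ratio.

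Col1a2 and Col1a1 encode the chains of type I collagen, the main protein of most connective tissue fibrils. Col1a2 was at 10.5, 20.4, 13.1, 27.3 and 18.6 FPKM in LPS libraries 1 to 5 and at 13.99, 29.0, 16.3, 20.1 and 19.7 FPKM in the PBS libraries. Col1a1 was at 8.53, 20.2, 12.7, 24.2 and 19.6 FPKM in LPS and at 12.7, 27.2, 15.4, 16.1 and 19.2 FPKM in PBS libraries. For both genes LPS library 1 was lowest and PBS library 2 highest, and the groups overlapped. Their log2 changes were -0.17 for Col1a2 (95% interval -0.68 to 0.35, limma adjusted p = 0.81) and -0.12 for Col1a1 (-0.68 to 0.43, adjusted p = 0.883).

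The type V genes and Col27a1, which encodes a fibrillar chain best known from cartilage, were lower. Type V collagen joins type I fibrils and limits their width. Means over all libraries were 4.91 FPKM for Col5a3, 4.76 for Col5a2, 2.76 for Col27a1 and 2.52 for Col5a1, with log2 changes from -0.068 for Col5a1 to 0.15 for Col27a1. The cartilage genes Col2a1, Col11a1 and Col11a2 and the gene Col24a1 did not reach the level needed for testing. Col2a1 was at 0 in all 5 LPS libraries and Col11a2 averaged 0.219 FPKM in LPS and 0.395 in PBS glands. Summed fibrillar FPKM was 115 ± 36.8 in LPS and 116.3 ± 28.4 in PBS glands.

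Of the type IV chains, Col4a1 and Col4a2, which assemble into the common network of nearly all basement membranes, ranked directly below Col3a1 in mean FPKM. Col4a1 was at 33.8, 67.9, 48.5, 50.5 and 52.9 FPKM in LPS libraries 1 to 5 and at 34.8, 55.8, 46.3, 35.8 and 52.4 FPKM in PBS libraries. Col4a2 was at 20.5, 42.8, 29.2, 32.5 and 31.9 FPKM in LPS and at 21.7, 32.0, 30.3, 21.5 and 31.2 FPKM in PBS libraries. LPS library 2 was highest and LPS library 1 lowest for both, with the PBS libraries between. The log2 change was 0.16 ± 0.18 for Col4a1 (SE, 95% interval -0.23 to 0.55, limma adjusted p = 0.735) and 0.18 for Col4a2 (-0.21 to 0.56, adjusted p = 0.702). As ratios the intervals reached 1.46 and 1.48, so rises up to that size lie within them.

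Col4a5, a chain of more specialised basement membranes, was at 4.60, 6.23, 5.41, 6.87 and 5.71 FPKM in LPS and at 4.32, 6.17, 5.62, 5.09 and 6.28 FPKM in PBS libraries. Its groups overlapped almost completely (log2 change 0.058, limma adjusted p = 0.877). The other minor chains were low, with means over all libraries of 0.132 FPKM for Col4a4, 0.103 for Col4a3 and 0.0529 for Col4a6. Col4a5 thus exceeded Col4a6, its neighbour on the X chromosome, by 57.7 to 288-fold across libraries (2 to 12 reads of Col4a6), while Col4a1 exceeded Col4a2 by 1.53 to 1.74-fold.

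Type VI collagen forms beaded microfilaments at the border between basement membrane and stroma. Col6a1 was at 7.42, 12.1, 10.2, 13.7 and 10.1 FPKM in LPS and at 8.61, 13.4, 10.2, 9.01 and 10.9 FPKM in PBS libraries. Col6a2 was at 6.61, 10.9, 7.04, 12.5 and 8.86 FPKM in LPS and at 6.75, 11.9, 7.82, 8.44 and 10.2 FPKM in PBS libraries. LPS library 4 was highest and LPS library 1 lowest for both genes. Col6a3, which encodes the longest chain of the heterotrimer, was at 1.83, 3.81, 2.23, 3.78 and 2.88 FPKM in LPS and at 2.15, 4.46, 2.83, 2.70 and 3.35 FPKM in PBS libraries. Log2 changes were 0.024 (95% interval -0.31 to 0.35), 0.012 (-0.37 to 0.40) and -0.075 (-0.47 to 0.32), with limma adjusted p of 0.966, 0.986 and 0.899. The alternative chains Col6a4, Col6a5 and Col6a6 averaged 0.10, 0.068 and 0.154 FPKM.

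Among the fibril-associated collagens, Col9a1 was the only tested collagen whose groups did not overlap. Type IX collagen is best known from the surface of cartilage fibrils. Col9a1 (ENSMUSG00000026147, chromosome 1, 24177610 to 24252684, plus strand) was at 3.86, 1.31, 3.02, 3.58 and 2.37 FPKM in LPS libraries and at 4.31, 4.44, 4.10, 4.51 and 4.99 FPKM in PBS libraries. All 5 LPS values lay below the lowest PBS value, and the PBS values were tightly grouped. Groups without overlap in this direction were found for 1.22% of all tested genes, and in either direction for 4.75%. In the higher direction 0 of 19 collagen genes had groups without overlap, where 3.53% of all tested genes did.

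The mean of Col9a1 was 2.83 ± 1.02 FPKM in LPS and 4.47 ± 0.328 FPKM in PBS glands, a ratio of 0.632. The log2 change was -0.56 ± 0.18 (SE, 95% interval -0.94 to -0.18) with a limma adjusted p of 0.11, so the gene was not called. Of 23 alternative analyses 2 called it, DESeq2 on recovered reads (adjusted p = 0.0439) and scaling to the FPKM outside milk proteins (limma adjusted p = 0.0303). Under that scaling 474 of the 607 genes called were lower. With edgeR the adjusted p was 0.118. Without LPS library 2 the log2 change was -0.39 (limma adjusted p = 0.173). The values of Col9a1 rest on 91 to 306 reads per library. Its partner chains were lower, Col9a2 at 0.403 ± 0.123 FPKM in LPS and 0.675 ± 0.254 in PBS glands and Col9a3 at 0.752 ± 0.346 and 0.585 ± 0.278, and neither reached the level for testing. Col9a1 exceeded Col9a2 by 4.66 to 12.7-fold across libraries.

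Col16a1 and Col12a1 complete the tested members of this class. Col16a1 was at 2.31, 3.31, 2.58, 3.66 and 2.24 FPKM in LPS and at 2.28, 4.55, 2.33, 3.61 and 2.30 FPKM in PBS libraries (log2 change -0.052, limma adjusted p = 0.93). Col12a1, which encodes a large chain that bridges fibrils, was at 0.976, 2.43, 1.05, 1.42 and 1.17 FPKM in LPS and at 1.06, 1.99, 0.622, 1.04 and 0.944 FPKM in PBS libraries (log2 change 0.18, adjusted p = 0.718). Neither gene separated the groups. Col12a1 passed the filter with 7 libraries at 1 FPKM or more, while Col14a1, a related fibril-binding collagen, had 4 such libraries and averaged 0.837 ± 0.255 FPKM in LPS and 1.13 ± 0.254 in PBS glands. Col20a1 was at 1.82 FPKM in PBS library 2 and 1.17 in PBS library 4, against 0.33 to 0.786 elsewhere, and these are the libraries richest in B and T cell markers. Whether the markers bear on Col20a1 was not tested. Col19a1 and Col22a1 averaged 0.00545 and 0.0142 FPKM.

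The multiplexins carry long non-helical ends and sit in basement membrane zones. The C-terminal end of the Col18a1 product is the source of endostatin. Col18a1 (ENSMUSG00000001435, chromosome 10, 77052178 to 77166548, minus strand) was at 2.82, 5.18, 4.81, 4.12 and 4.52 FPKM in LPS and at 2.29, 3.12, 2.73, 2.14 and 4.01 FPKM in PBS libraries. LPS libraries 2 to 5 lay above every PBS library, and LPS library 1 lay within the PBS range. The means were 4.29 ± 0.912 and 2.86 ± 0.753 FPKM, a ratio of 1.5. The log2 change of 0.46 ± 0.16 (SE, 95% interval 0.12 to 0.80) had a limma adjusted p of 0.153. Without LPS library 1 the adjusted p was 0.0454, without LPS library 2 0.348 and without PBS library 4 0.325. After scaling to the FPKM outside milk proteins it was 0.297. Of 23 alternative analyses, 3 called the gene. Slc19a1 overlaps Col18a1 on the opposite strand and was at 0.393 to 1.07 FPKM, and reads of the overlapping part cannot be assigned to a strand here.

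Col15a1, the other multiplexin, was at 4.01, 7.97, 5.34, 5.44 and 7.22 FPKM in LPS and at 5.44, 8.70, 5.36, 5.42 and 8.23 FPKM in PBS libraries. Its log2 change was -0.13 (95% interval -0.51 to 0.26, limma adjusted p = 0.804). The ratio of Col15a1 to Col18a1 was 1.42, 1.54, 1.11, 1.32 and 1.60 in LPS and 2.38, 2.78, 1.96, 2.54 and 2.05 in PBS libraries. The groups did not overlap in this ratio. It was chosen after the values were seen, so it is a description without a test.

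Col17a1 encodes the transmembrane collagen of hemidesmosomes, the junctions that fix basal epithelial cells to the basement membrane. It was at 2.99, 5.12, 3.68, 3.85 and 4.89 FPKM in LPS and at 2.62, 3.29, 2.31, 3.17 and 3.35 FPKM in PBS libraries. Again LPS library 1 alone lay within the PBS range. The means were 4.10 ± 0.886 and 2.95 ± 0.461 FPKM, and the log2 change was 0.36 ± 0.13 (SE, 95% interval 0.068 to 0.65, limma adjusted p = 0.189). The gene (ENSMUSG00000025064, chromosome 19, 47646344 to 47692094) is on the minus strand. Col13a1, Col23a1 and Col25a1, the other transmembrane collagens, averaged 0.359, 0.129 and 0.034 FPKM.

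The remaining 6 genes were not tested. Col8a1, a short-chain collagen of vessel walls, averaged 0.311 ± 0.113 FPKM in LPS and 0.482 ± 0.155 in PBS glands, with overlapping groups. Col8a2 and the growth plate collagen Col10a1 averaged 0.0346 and 0.0757 FPKM. Col7a1, which forms the anchoring fibrils beneath stratified epithelia, averaged 0.697 ± 0.150 and 0.832 ± 0.119 FPKM, and Col28a1 and Col26a1 averaged 0.331 and 0.0132 FPKM over all libraries. Across all classes, 12 of the 25 untested collagen genes averaged under 0.1 FPKM.

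**Figure D3:**
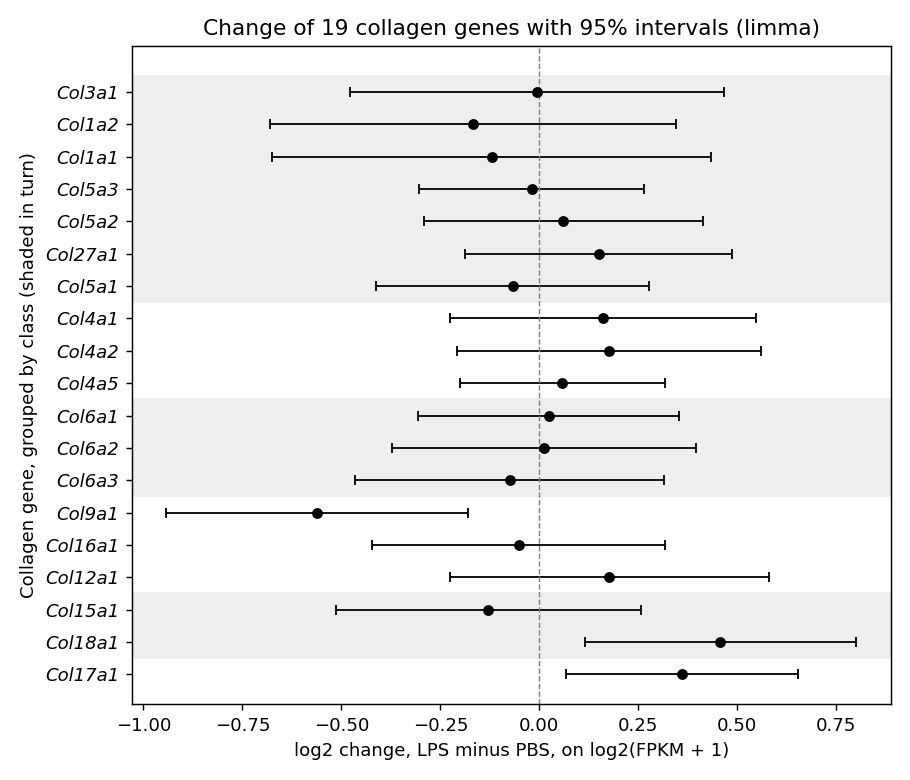
Log2 change (x axis, LPS minus PBS, on log2(FPKM + 1)) of the 19 tested collagen genes, with points for the estimate of limma and bars for its 95% interval; classes are shaded in turn. The interval excludes 0 for Col9a1 (-0.94 to -0.18), Col18a1 (0.12 to 0.80) and Col17a1 (0.068 to 0.65), none of which passed adjustment over all tested genes.

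The order of the levels was stable across libraries at the top and less so further down. It rests on the gene lengths behind the authors' FPKM, which are the same in every library. The length recovered from the FPKM was 5564 bases for Col3a1, 5347 for Col1a2 and 6615 for Col4a1. Exons of GENCODE M21 cover 9816, 12426 and 7464 bases of these genes. Whether the order holds with other lengths was not tested. Col3a1 exceeded Col4a1 in 9 of 10 libraries, Col4a1 exceeded Col4a2 in 10 and Col4a2 exceeded Col1a2 in 10. Col1a2 exceeded Col1a1 in 9, and the descending steps from Col1a1 to Col6a1, Col6a2 and Col15a1 held in 10 each. From there, several neighbours changed places between libraries: Col15a1 exceeded Col4a5 in 6, Col5a3 exceeded Col5a2 in 6 and Col18a1 exceeded Col17a1 in 5. Other steps held in most libraries, with Col4a5 above Col5a3 in 9, Col17a1 above Col6a3 in 8 and Col5a1 above Col12a1 in 10.

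Collagen levels varied from gland to gland within both groups. Summed collagen FPKM ran from 166.4 to 310.5 in LPS and from 187.7 to 319.4 in PBS glands. Over the libraries of both groups together, the highest exceeded the lowest 2.22-fold for the median tested collagen gene, against 1.72-fold over all tested genes. These ratios include any difference between the groups. Of the 19 tested genes, 7 were highest in PBS library 2, 6 in LPS library 2 and 5 in LPS library 4, and 11 were lowest in LPS library 1. PBS library 2 also had the highest sum of B and T cell markers. With those markers as a covariate, and likewise without PBS library 2, 0 of the 19 collagen genes were called in either direction. Of all 11414 tested genes, 739 were called with the covariate and 337 without PBS library 2.

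The partner chains of type IV and type I collagen kept narrow proportions while their levels varied. Ratios between collagen genes were picked after the values were seen and carry no test. The ratio of Col4a1 to Col4a2 was 1.53 to 1.74 over the 10 libraries, a coefficient of variation of 3.94%. The ratio of Col1a1 to Col1a2 was 0.803 to 1.06 (8.51%), and that of Col4a1 to Col3a1, which spans classes, was 0.536 to 1.05 (19.5%). The partners Col6a1 and Col6a2 had 10.7%, close to the 11.6% of Col3a1 to Col1a1, which are not partners. Narrow proportions were thus not particular to partner chains. The ratio of Col5a2 to Col5a1 was 2.01 ± 0.0939 in LPS and 1.79 ± 0.120 in PBS glands, and its groups did not overlap.

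Each of the 18 other tested collagen genes was set against Col3a1 over the 10 libraries on log2(FPKM + 1). These were part of 48 relations computed, and all points share their library's scaling. With Pearson's r above 0.85 stood 8 genes, which were also the 8 with a permutation p (100000 resamples, two-sided, adjusted by Benjamini-Hochberg over the 48) below 0.05. They were Col6a2 (0.978), Col1a1 (0.961), Col1a2 (0.951), Col6a3 (0.941), Col5a2 (0.905), Col5a1 (0.900), Col6a1 (0.897) and Col4a5 (0.877). For Col6a2, Spearman's rho was 0.988, the raw permutation p of r was 1e-05, the smallest that these resamples can give, and the adjusted p 0.00024. Without the 2 libraries farthest from the median of Col3a1 (LPS libraries 1 and 4), r was 0.976 for Col6a2 and 0.971 for Col1a1. Once group means were removed it was 0.978 and 0.969.

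The other 10 tested collagen genes, of several classes, had lower coefficients with Col3a1. The fibrillar genes Col5a3 and Col27a1 had r = 0.642 and 0.459, Col15a1 had 0.701, Col16a1 0.624, Col12a1 0.588 and Col17a1 0.485. Of the type IV genes, Col4a1 had r = 0.706 and rho = 0.77 (permutation p = 0.025, adjusted 0.082) and Col4a2 r = 0.694 and rho = 0.867 (p = 0.028, adjusted 0.082). Col18a1 had r = 0.402 and rho = 0.333 (permutation p = 0.25, adjusted 0.38), and Col9a1 r = -0.16 and rho = 0.006 (p = 0.67, adjusted 0.75). Without LPS libraries 1 and 4 the r of Col4a1 was 0.684 and that of Col9a1 -0.185. Differences between these coefficients were not tested.

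**Figure D4:**
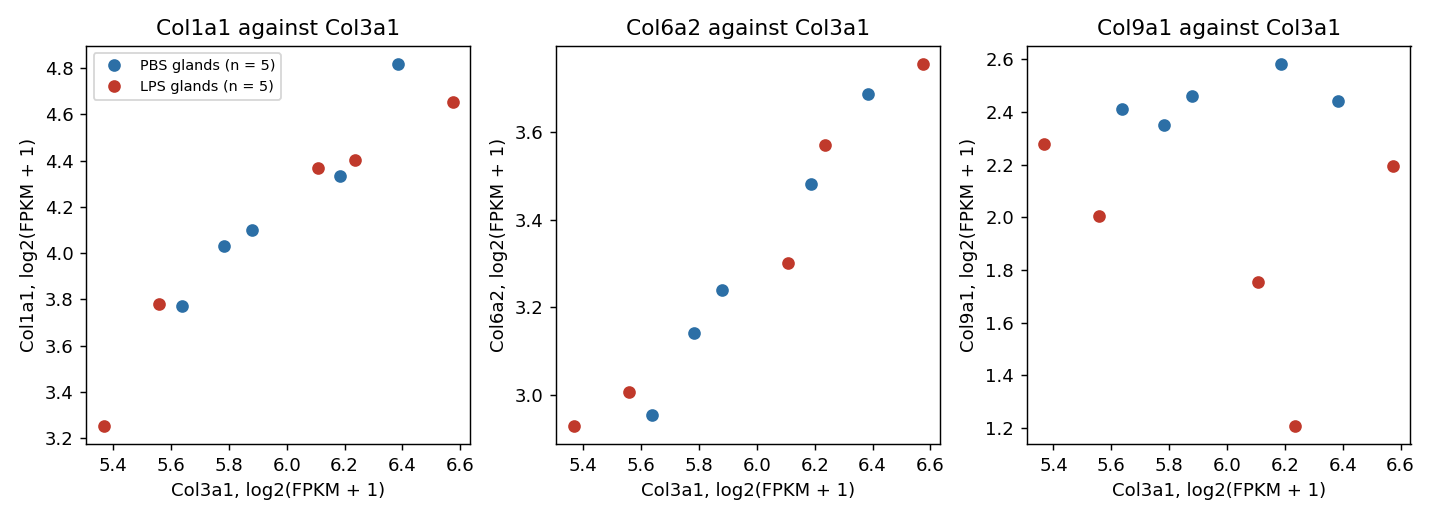
Each panel plots 1 collagen gene (y axis) against Col3a1 (x axis), both in log2(FPKM + 1), with 1 point per library (blue PBS, red LPS, n = 5 each). Col1a1 (r = 0.961) and Col6a2 (r = 0.978) follow Col3a1 across both groups, and Col9a1 does not (r = -0.16).

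Collagen genes were also set against the markers of 6 cell types, 30 relations in all. Of these, 2 had an adjusted permutation p of r below 0.05, both with markers of myoepithelium, the contractile basal cells that rest on the basement membrane. The mean log2(FPKM + 1) of 8 myoepithelial markers had r = 0.918 and rho = 0.939 with Col18a1 (permutation p = 0.0002, adjusted 0.0019). With Col4a1 it had r = 0.857 (permutation p = 0.0016, adjusted 0.0078) and rho = 0.758 (p = 0.015, adjusted 0.055). Without PBS libraries 1 and 4, the farthest in the markers, r was 0.837 and 0.749, and with group means removed 0.849 and 0.953. For Col17a1 r was 0.728 (permutation p = 0.016, adjusted 0.066) and rho 0.842 (adjusted 0.016), for Col9a1 r was -0.677 and rho -0.709 (p = 0.029, adjusted 0.082), and for Col3a1 r was 0.534 and rho 0.539 (p = 0.11, adjusted 0.23). With group means removed r was 0.499 for Col17a1, -0.382 for Col9a1 and 0.729 for Col3a1. For Col9a1 and Col17a1, luminal epithelial markers had similar coefficients, r = -0.683 (permutation p = 0.018, adjusted 0.066) and 0.614 (p = 0.064, adjusted 0.15). Their coefficients were lower with Col18a1 (r = 0.47), Col4a1 (0.156) and Col3a1 (0.042). With group means removed the luminal values were -0.215 for Col9a1 and 0.093 for Col17a1. For Col18a1, Col4a1 and Col3a1 they were -0.294, -0.133 and 0.093. Differences between the coefficients of the marker sets were not tested.

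The summed level of the myoepithelial markers was 428.7 to 555.9 FPKM in LPS and 335.3 to 454.9 FPKM in PBS glands, with none at 0 in any library. Of 7 tested markers 1 rose, the basal keratin gene Krt5, from 12.8 ± 1.77 FPKM in PBS to 19.8 ± 2.33 in LPS glands (limma adjusted p = 0.0163). The median log2 change of the 7 was 0.23, and 2.63% of all tested genes were called higher. The adjusted p of Krt5 was 0.0894 after scaling to the FPKM outside milk proteins, 0.0503 without LPS library 2 and 0.0519 without PBS library 4. The part of these markers in the values of Col4a1, Col17a1 and Col18a1 was not tested. Luminal markers summed to 969.6 to 1175 FPKM in LPS and 907 to 1030 FPKM in PBS glands, and 1 of 6 rose, Krt8, from 129.5 ± 14.2 to 188.4 ± 34.6 FPKM (limma adjusted p = 0.0445). Krt8 lost its call in 14 of 24 alternative analyses.

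**Figure D5:**
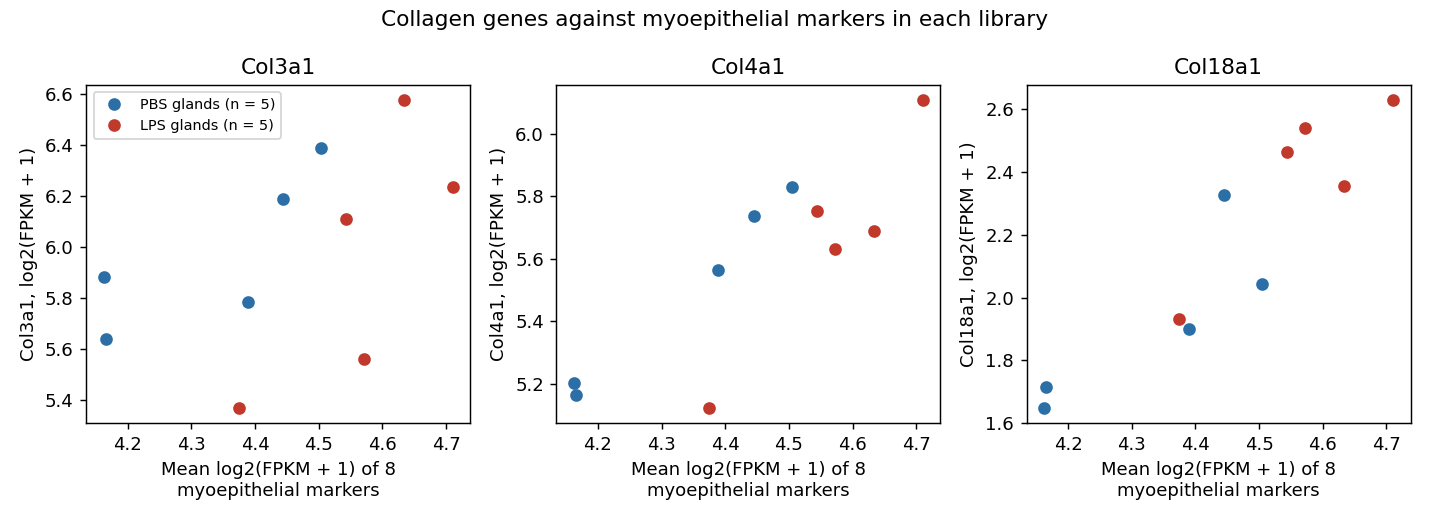
Each panel plots 1 collagen gene in log2(FPKM + 1) against the mean log2(FPKM + 1) of 8 myoepithelial markers, with 1 point per library (blue PBS, red LPS, n = 5 each). Col18a1 (r = 0.918) and Col4a1 (r = 0.857) rise with the markers across libraries, and Col3a1 is more scattered (r = 0.534).

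Markers of the main collagen-making stromal cells had no called member. None of 9 fibroblast markers, 8 endothelial markers and 6 tested pericyte and smooth muscle markers was called. Over all tested genes 3.23% were called, a share at which lists this short would often hold no call. Fibroblast markers summed to 166.6 to 251.2 FPKM in LPS and 179.3 to 294.7 FPKM in PBS glands, endothelial markers to 71.5 to 91.3 and 67.5 to 94.0, and pericyte markers to 55.3 to 78.0 and 54.6 to 79.1. The fibroblast marker Dcn was at 53.4 ± 11.3 and 51.9 ± 9.96 FPKM and the endothelial marker Pecam1 at 20.97 ± 2.02 and 20.6 ± 3.94 FPKM. Set against Col3a1, fibroblast markers had r = 0.342 and rho = 0.612 (permutation p = 0.33, adjusted 0.49), or 0.301 without LPS libraries 1 and 5. Pericyte and smooth muscle markers had r = 0.722 and rho = 0.673 (permutation p = 0.015, adjusted 0.064) and endothelial markers r = 0.666 and rho = 0.685 (p = 0.04, adjusted 0.1). Without LPS library 1 and PBS library 2 these were 0.511 and 0.429. Neutrophil markers, in contrast, showed the response to LPS: 5 of 6 tested rose, where 2.63% of all tested genes were called higher. Their median log2 change was 1.35, led by S100a9 and S100a8, while Retnlg and Csf3r lost their calls in 13 of 23 and 9 of 24 alternatives.

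The genes that fold and modify procollagen in the endoplasmic reticulum had 0 of 17 called in either direction, where 3.23% of all tested genes were called. Their median log2 change was 0.13 against 0.048 over all tested genes. P4hb, the disulfide isomerase subunit of prolyl hydroxylase, was at 235 ± 25.0 FPKM in LPS and 243.2 ± 29.4 in PBS glands, and Ppib, a prolyl isomerase, at 38.2 ± 2.12 and 39.4 ± 4.04 FPKM. Of the genes that cleave and crosslink procollagen 0 of 7 were called (median 0.037), beside the same 3.23% of all tested genes. Pxdn, the peroxidasin that crosslinks type IV collagen, was at 13.6 ± 3.11 and 9.88 ± 1.83 FPKM with overlapping groups (limma adjusted p = 0.177). Lox, which crosslinks fibrils, was at 5.16 ± 1.62 and 3.71 ± 0.848 FPKM (adjusted p = 0.324).

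Among collagen receptors 1 of 5 tested genes rose and 0 fell (median log2 change -0.048). Of all tested genes 2.63% were called higher and 0.605% lower. Ddr1, a receptor tyrosine kinase of epithelial cells that binds collagen, was at 41.8, 72.5, 60.9, 55.4 and 50.4 FPKM in LPS and at 21.9, 29.9, 36.9, 28.0 and 38.3 FPKM in PBS libraries. Every LPS library lay above every PBS library. Its log2 change was 0.84 ± 0.17 (SE, limma adjusted p = 0.0188). The adjusted p was 0.0525 without LPS library 2, 0.0557 without PBS library 4 and 0.0615 without a filter.

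Of the genes of collagen degradation 2 of 9 rose and 0 fell (median log2 change -0.073), beside 2.63% higher and 0.605% lower over all tested genes. Mmp3, stromelysin 1, a protease that cuts many matrix proteins, rose from 29.0 ± 9.42 FPKM in PBS to 77.6 ± 30.9 in LPS glands, with no overlap (log2 change 1.36 ± 0.28, limma adjusted p = 0.02). Its adjusted p was between 0.0511 and 0.0579 without LPS library 2, LPS library 3, PBS library 1 or PBS library 4, and 0.0753 without a filter. Timp1, an inhibitor of these proteases, rose from 22.01 ± 1.92 to 37.2 ± 5.01 FPKM, also with no overlap (log2 change 0.73 ± 0.10, adjusted p = 0.0043), and was called in all 24 alternatives.

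None of the 14 tested laminins and other basement membrane genes was called (median log2 change 0.0091), where 3.23% of all tested genes were called. Also without a call were the 17 tested proteoglycans and fibril partners (-0.13) and the 12 tested genes of the TGF-beta pathway (0.10). The TGF-beta pathway drives collagen synthesis in fibroblasts. Agrn, the heparan sulfate proteoglycan agrin, was at 39.6 ± 9.55 FPKM in LPS and 26.4 ± 8.17 in PBS glands (limma adjusted p = 0.173). Sparc, a collagen-binding glycoprotein, was at 122 ± 16.7 and 110.3 ± 13.7 FPKM (adjusted p = 0.603). The receptor gene Tgfbr2 was at 41.9 ± 4.07 and 48.0 ± 5.31 FPKM (adjusted p = 0.373) and the ligand gene Tgfb3 at 38.9 ± 14.8 and 34.0 ± 3.92 FPKM (adjusted p = 0.883).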

How the data were processed

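The submitters' processing notes name build mm10 and the tools DESeq2 (version 2), HTSeq 0.6.1 and STAR 2.5; settings, strand and annotation release are not given in the sources used here. Values for all genes are FPKM made by the authors. The authors' deposited list of 908 changed genes holds raw counts, a normalized signal, log2 fold changes and p-values; it was used for depth and symbols, and for the statement that no collagen gene is in it. From the counts of listed genes the depth was found, and whole reads were recovered for 23059 of 23059 genes above 0 (tolerance 0.002 reads; equal to the deposited counts for 907 of 908 listed genes). For Col19a1 and Col26a1 more than one gene length gave whole reads, so their reads are not used.

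Genes reaching an FPKM of 1 in 5 or more libraries were tested with limma 3.58.1 (R 4.3.3, intensity trend, two-sided) on log2(FPKM + 1), which understates changes of low genes. Group was the only term, and calls were at an adjusted p below 0.05. Alternatives were other pseudocounts, filters, scalings and variance options, a replicate block, a B and T cell marker covariate, leaving out each library, and edgeR 4.0.16 and DESeq2 1.42.0 on the recovered reads. The procedures were tested on simulated data.

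Members and gene lists were chosen with earlier results of these data known. Values in every library were given for Col3a1, Col4a1, called collagen genes and the 3 tested genes of highest mean in each class. Other lists are represented by their called members (4 at most, by size of change) or else by the 2 of highest mean FPKM. A gene that this rule names is not reported here. Of lists not described in the report, adipocyte markers had 0 of 7 called (Fabp4 552.6 ± 122 FPKM in LPS and 573 ± 127 in PBS glands), macrophage markers 0 of 6 (median log2 change -0.43) and Schwann cell markers 0 of 3. Lymph node stroma and skeletal muscle had 1 tested marker each, not called, and of 10 B and T cell markers none was tested. Of all tested genes 3.23% were called. Coding sequences and coordinates of collagen genes are from GENCODE M21 (GRCm38), whose spans overlapped the authors' coordinates for 905 of 905 listed genes found there.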

Additional observations from a re-analysis of the deposited data

Results flagged for a closer look

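In 9 of 85 groups of 5 libraries 1 value stood apart from the other 4 by Dixon's test. The test marks about 1 in 20 groups of normally distributed values. That rate is no measure for genes of few reads, so the count is not read as an excess. Apart from Col27a1 (551 reads) and Col19a1, whose reads are not used, the flagged values rested on 4 to 74 reads. The one tested gene among them was Col27a1, at 3.99 FPKM in LPS library 2 against 2.59 to 2.88 in the other LPS libraries. In PBS library 2, Col6a4 was at 0.505 FPKM (others 0.0254 to 0.0946), Col11a2 at 0.725 (0.258 to 0.391) and Col19a1 at 0.0545 (others 0). Col2a1 was at 0.199 FPKM in PBS library 4 (0 to 0.0348), and Col10a1 at 0.189 in PBS library 3 (0.0399 to 0.0812). Among LPS libraries, Col11a1 was at 0.137 FPKM in library 2 (0.0691 to 0.0846), Col22a1 at 0.0262 in library 3 (0 to 0.00626) and Col6a5 at 0.277 in library 4 (0 to 0.0342). PBS libraries 2 and 4 were also those richest in B and T cell markers; their part in these values was not tested.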

How the results depend on the processing

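The labels do not say that libraries of the same number share an animal, and the data do not settle it: deviations of same-number libraries correlated at 0.0993 to 0.494 over 5 pairs, and 3 of 5 LPS libraries correlated best with their own number. With the replicate block, 2 collagen genes were higher in LPS glands (Col18a1, limma adjusted p = 0.0282, and Col17a1, 0.0356), and 1229 genes were called in all, 962 of them higher. With library weights 1 collagen gene was higher (Col18a1, adjusted p = 0.0398) and 656 genes were called. Leaving out single libraries gave 0 to 1 higher collagen genes, the 1 being Col18a1 without LPS library 1, and 150 to 517 called genes, against 369 with all libraries. The called genes numbered 150 without LPS library 2 and without PBS library 4, 160 without PBS library 1, 202 without LPS library 3 and 226 without PBS library 5. Scaling to FPKM outside milk proteins and DESeq2 each called 1 collagen gene lower (Col9a1, adjusted p = 0.0303 and 0.0439), and they called 607 genes (133 higher) and 846 genes (546 higher). Without a filter 126 genes were called and with the B and T cell covariate 739. Of the 369, 300 were higher; by median-of-ratios scaling 254 were higher and 115 lower, by quantile normalization 233 and 145, and by edgeR 305 and 132. Under the scaling outside milk proteins the median log2 change over tested genes was -0.15, against 0.048.

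Over all alternatives, the log2 change of Col9a1 was -0.74 to -0.28 (adjusted p 0.0303 to 0.249), that of Col18a1 0.24 to 0.58 (0.0282 to 0.348) and that of Col17a1 0.18 to 0.45 (0.0356 to 0.456). Col3a1 ranged from -0.23 to 0.16. Uncalled collagen genes changed sign in 52 of 446 values. The causes were not tested. Counts of reads limit genes below 0.1 FPKM, and the interval of Col1a2 as a ratio ran from 0.624 to 1.27.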
